A study of Homo sapiens with 12 samples.

Results

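Insulin-like growth factor (IGF) signalling was followed through 10 genes of its axis, which were the rows of the expression table with the symbols IGF2, IGF1R, IGFALS, IGFBP1 to IGFBP6 and IGF2BP1. They were chosen by name, and all 10 were found among the 16705 genes of the table. RNA was sequenced from spheroids in which C3A, a human hepatoma clone derived from HepG2 that keeps hepatocyte functions, was grown together with a smaller number of LX-2 cells, an immortalized line from hepatic stellate cells. There were 12 libraries, with 3 in each of 4 groups, namely spheroids left untreated for 24 h or 144 h and spheroids exposed to 1% total parenteral nutrition (TPN) for 24 h or 144 h. TPN is intravenous feeding for patients whose gut cannot be used, and supplies amino acids, glucose, a lipid emulsion, electrolytes, vitamins and trace elements. All 4 groups shared the same 2 lines and the same serum-supplemented medium, the exposed and untreated spheroids of a time point had the same age in culture, and each library was a pool of spheroids of tumour or immortalized cells with no other liver cell type added. According to the study, the replicates of the sequencing came from independent experiments, and the labels do not say whether a replicate number marks the same experiment in every group.

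IGF1 and IGF2 are secreted growth factors that act through the receptor tyrosine kinase IGF1R. In blood and tissue fluid they are held by 6 high-affinity binding proteins, IGFBP1 to IGFBP6, which lengthen their life and decide how much of them reaches the receptor. The liver is the main source of circulating IGF1, of IGFBP1 and of IGFALS, whereas IGF2 and the mRNA-binding protein IGF2BP1 are abundant in fetal liver and are switched back on in many hepatomas. IGFBP1 is regulated quickly in hepatocytes, where insulin lowers its transcription and a shortage of amino acids or oxygen raises it.

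Expression was given as FPKM, fragment numbers scaled by the length of the transcript and by the size of the library, so that levels can be compared between genes. Tests were made with limma on log2(FPKM + 0.1) for the 11713 genes whose FPKM averaged 0.5 or more, and p values were adjusted over all of these genes by the Benjamini-Hochberg method. Genes are said to have risen or fallen when the adjusted p value was below 0.05, and are called DEGs when the absolute log2 fold change was also above 0.58. Of the 10 genes, 9 passed the filter and IGFBP5 did not. Steps between low FPKM values in short genes placed the depth near 1.86e+07 fragments per library (1.81e+07 to 1.92e+07). At that depth IGFBP3 rested on between 12.2 and 1995 fragments in a library, IGFBP2 on 27.3 to 74.7, IGFBP6 on 15.9 to 28.9, IGFALS on 10.0 to 28.0 and IGFBP5 on 0 to 36.7. The levels of IGFBP5, IGFALS, IGFBP6, IGFBP2 and, at 24 h, IGFBP3 therefore rested on few fragments.

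Most of the hepatocyte markers examined were well expressed. Of 10 hepatocyte markers, 9 were at 1 FPKM or more in every group and CYP7A1 was below 0.1, and the 10 together summed to between 12470 and 18289 FPKM. The highest means in untreated spheroids at 24 h were those of ALB, AFP and SERPINA1, at 4392, 4300 and 3693 FPKM. Stellate cell markers were far lower, and lower at 144 h than at 24 h. The sum of 12 of them lay between 119.7 and 142.3 FPKM at 24 h and between 70.3 and 80.2 at 144 h, and DCN, LUM and DES were below 0.1 FPKM in every group. In all groups, the 4 endothelial markers summed to at most 0.53 FPKM, and of the 3 macrophage and leukocyte markers in the table PTPRC and MARCO were below 0.1 while CD14 averaged between 1.03 and 1.37. Since every library came from a mixture of 2 lines, fewer cells of a type and less RNA per cell cannot be told apart. Over all genes tested, the median log2 fold change from 24 h to 144 h was -0.18 without TPN and -0.18 with it, and changes over time are to be read against that shift. Between exposed and untreated spheroids the median was -0.0045 at 24 h and -0.02 at 144 h.

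Of the 9 genes tested, 0 were DEGs with TPN at 24 h, where limma called 0.914% of all genes, and 1 (IGFBP1) had an adjusted p below 0.05, as had 10.5% of all genes. At 24 h 3 more (IGFBP3, IGFBP4 and IGF2BP1) had an unadjusted p value between 0.0108 and 0.0141. At 144 h 2 were DEGs, IGFBP2 and IGFBP3, both higher with TPN, against 5.75% of all genes called higher and 9.48% in either direction. An adjusted p below 0.05 was reached by 7, with IGF1R and IGFBP1 to IGFBP4 higher and IGF2 and IGF2BP1 lower, against 52.5% of all genes. The same 7 genes had exposed and untreated libraries that did not overlap at 144 h, as did 57.3% of all genes, and at 24 h there were 4 such genes against 29.9%. The median absolute log2 fold change at 144 h was 0.28 in the 9 genes and 0.17 in all genes. For the interaction, 2 genes (IGFBP2 and IGFBP3) passed both thresholds against 5.87% of all genes, and 6 had an adjusted p below 0.05 against 30.4%.

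Over time, 4 of the 9 were DEGs in untreated spheroids against 19% of all genes. IGF2, IGFBP1 and IGFBP3 were higher at 144 h, as were 6.8% of all genes, and IGFALS was lower, as were 12.2%. In exposed spheroids 6 of the 9 were DEGs against 26.7% of all genes, the same 4 together with IGFBP2, which was higher, and IGF2BP1, which was lower. An adjusted p below 0.05 over time was reached by 7 of the 9 in untreated spheroids and by 7 in exposed ones, against 72.6% and 76.2% of all genes. The time comparison of each arm and the TPN comparisons share libraries. IGFALS passed the filter through its levels at 24 h, and IGFBP3 through its levels at 144 h. Their place among the 9 genes tested therefore depended on the same difference that the comparison over time tests. Among the levels, the order in untreated spheroids at 24 h was IGF2, IGFBP1, IGF2BP1, IGF1R, IGFBP4, IGFBP6, IGFBP2, IGFALS, IGFBP3 and IGFBP5, in which the ranges of IGFBP6 and IGFBP2 and of IGFBP3 and IGFBP5 overlapped. In exposed spheroids at 144 h IGFBP3 had moved up to the 3rd place, between IGFBP1 and IGF2BP1, and no neighbouring ranges overlapped. Among all genes of the table, IGF2 stood at percentile 99.4 in untreated spheroids at 24 h and IGFBP1 at percentile 98.1, and IGFBP3 moved from percentile 28.7 at 24 h to 71.4 at 144 h in untreated and from 30.3 to 89.2 in exposed spheroids.

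**Figure D1:**
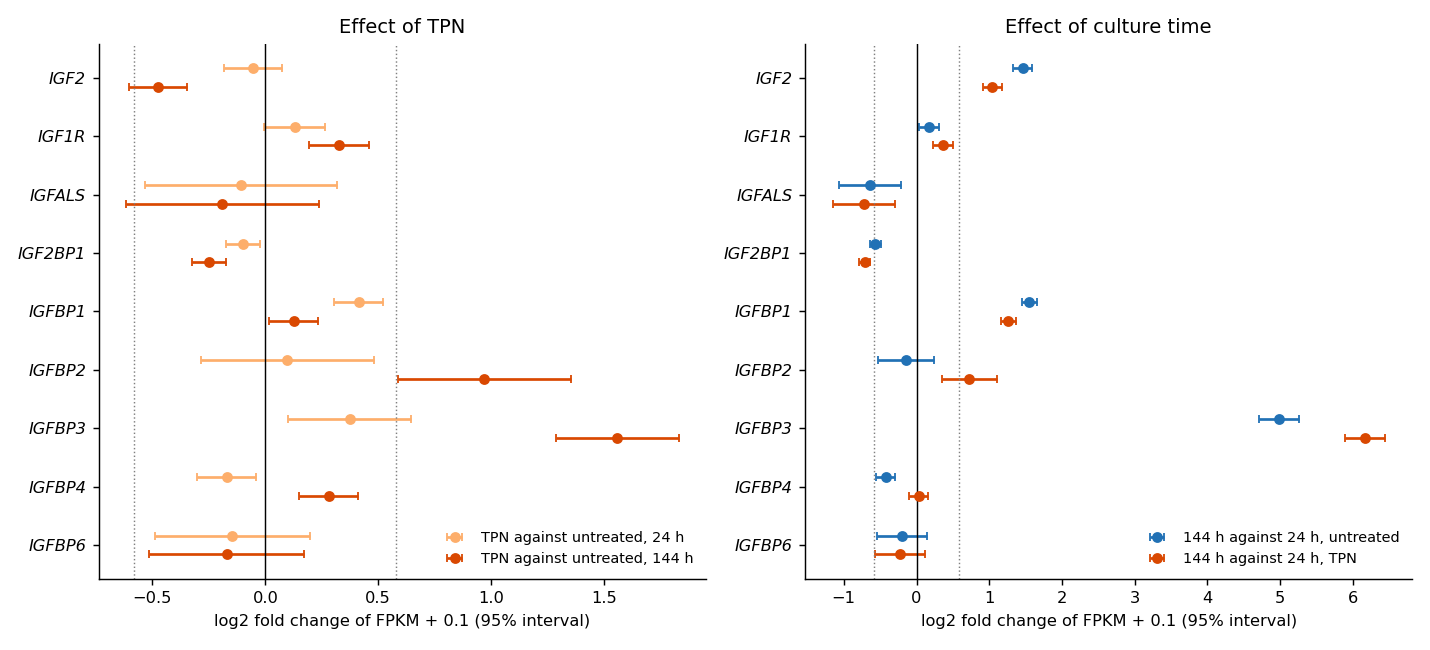
Log2 fold changes of FPKM + 0.1 with 95% intervals for the 9 genes tested, on the left for exposed against untreated spheroids at 24 h and 144 h and on the right for 144 h against 24 h in each arm, with dotted lines at the fold threshold of 0.58. At 144 h with TPN only IGFBP2 (0.97) and IGFBP3 (1.56) lie beyond the threshold, and over time IGFBP3 lies far to the right at 4.98 and 6.17.

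IGF2, the ligand, was the most abundant of the 10 genes in every group. Its FPKM in untreated spheroids was 949, 1016 and 836 at 24 h and 2453, 2606 and 2620 at 144 h. In exposed spheroids it was 945, 894 and 852 at 24 h and 1925, 1812 and 1790 at 144 h. The groups overlapped at 24 h, while at 144 h all exposed libraries lay below all untreated ones. IGF2 rose with time in untreated spheroids by 1.46 on the log2 scale (SE 0.06, adjusted p = 1.45e-10), from 933 ± 90.8 to 2560 ± 92.8 FPKM (mean ± SD, n = 3). In exposed spheroids it rose by 1.04 (SE 0.06, adjusted p = 1.97e-09). At 144 h the mean in exposed spheroids was 28.0% below that in untreated spheroids, a log2 fold change of -0.47 (SE 0.06, adjusted p = 1.87e-05), which is short of the fold threshold for a DEG. The effect of TPN was different at the 2 time points, with an interaction of -0.42 (SE 0.09, adjusted p = 0.00227). Hepatocyte markers were mostly lower with TPN at 144 h as well. With TPN at 144 h 8 of the 9 tested fell, with a median log2 fold change of -0.35. Over all genes 52.5% had an adjusted p below 0.05 in that comparison, in either direction, with a median of -0.02. The 10 markers together summed to between 12470 and 13507 FPKM in exposed and between 16889 and 18289 FPKM in untreated spheroids. Over time, while IGF2 rose, 2 of the 9 markers rose and 4 fell in untreated spheroids, with a median of -0.02. In exposed spheroids 2 rose and 6 fell, with a median of -0.51. An adjusted p below 0.05 over time was reached by 72.6% and 76.2% of all genes. The part of the hepatocyte markers in the level of IGF2 was not tested. Reads of IGF2 also match a read-through transcript with the insulin gene, and how the counting divided them is not given in the sources used here. Its sister ligand IGF1 was listed at 0 in all 6 libraries of 24 h and did not exceed 0.06 FPKM at 144 h. GHR, the growth hormone receptor that drives IGF1 in the adult liver, did not exceed 0.01 FPKM.

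IGF1R, the receptor that carries the growth signal, ranged from 16.1 to 25.0 FPKM over the 12 libraries. Its FPKM in untreated spheroids was 16.1, 17.1 and 17.0 at 24 h and 18.8, 20.4 and 17.5 at 144 h. In exposed spheroids the values were 17.9, 18.7 and 18.5 at 24 h and 24.7, 25.0 and 21.4 at 144 h. The exposed libraries lay above the untreated ones at both time points, with the nearest values close together. At 24 h the log2 fold change was 0.13 (SE 0.06, adjusted p = 0.224), and at 144 h IGF1R rose with TPN by 0.33 (SE 0.06, adjusted p = 0.000608). IGF2R, which binds IGF2 and delivers it to lysosomes, rose with TPN by 0.22 at 24 h (SE 0.05, adjusted p = 0.00766) and by 0.49 at 144 h (SE 0.05, adjusted p = 1.11e-06). The ratio of IGF2R to IGF1R in FPKM was 2.12 ± 0.04 without TPN and 2.26 ± 0.07 with TPN at 24 h, and 1.64 ± 0.01 and 1.84 ± 0.13 at 144 h (SD, n = 3). INSR, the insulin receptor, rose with time in untreated spheroids by 0.46 (SE 0.04, adjusted p = 5.42e-07) and with TPN at 144 h by 0.16 (SE 0.04, adjusted p = 0.00831).

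**Figure D2:**
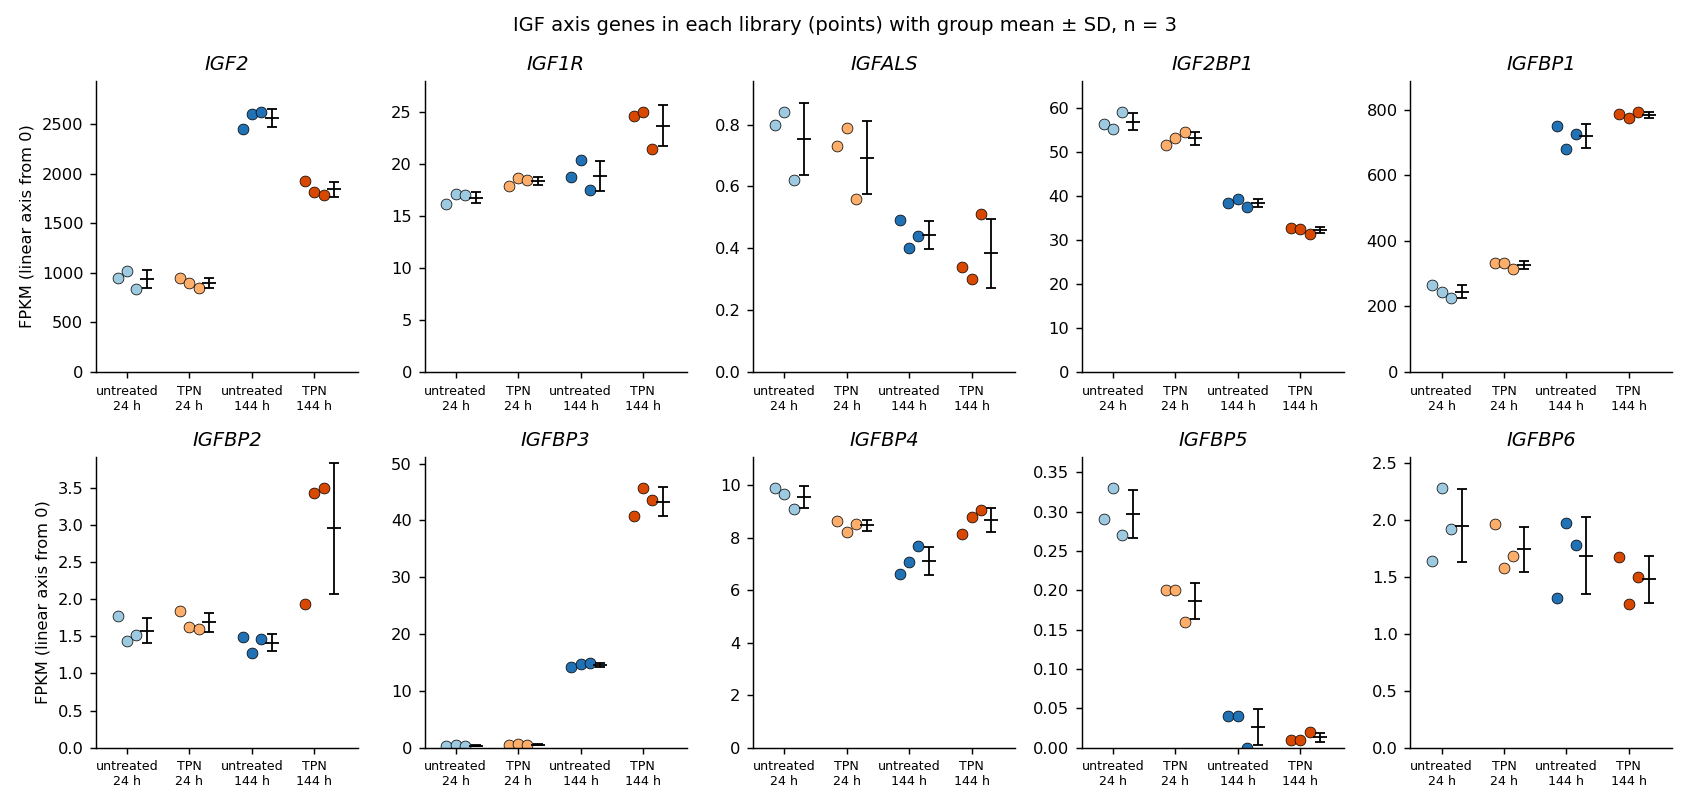
FPKM of the 10 IGF axis genes on linear axes from 0, with a point for each library and, beside each group, the mean and SD of 3 libraries. IGFBP3 sits below 1 FPKM in the 6 libraries of 24 h, between 14.2 and 14.8 in untreated and between 40.7 and 45.7 in exposed spheroids at 144 h, while IGFBP5 is at most 0.04 FPKM at 144 h.

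IGFBP1 made up nearly the whole binding protein mRNA. Its FPKM was 265, 245 and 226 in untreated and 332, 334 and 313 in exposed spheroids at 24 h. At 144 h it was 750, 681 and 726 in untreated and 786, 773 and 792 in exposed spheroids. The exposed libraries were above the untreated ones at both time points, by a wide gap at 24 h and a narrow one at 144 h. IGFBP1 rose with TPN by 0.41 at 24 h (SE 0.05, adjusted p = 0.000115), a mean difference of 32.9%. At 144 h the log2 fold change was 0.12 (SE 0.05, adjusted p = 0.0493), and in 11 of 22 alternative settings this adjusted p value was above 0.05. The interaction was -0.29 (SE 0.07, adjusted p = 0.00761). Over time IGFBP1 rose by 1.55 in untreated (SE 0.05, adjusted p = 1.42e-11) and by 1.26 in exposed spheroids (SE 0.05, adjusted p = 4.67e-11).

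IGFBP3, the main carrier of IGFs in blood, showed the largest fitted rise over time among all 11713 genes tested, ranking 1 both in untreated and in exposed spheroids. It kept that rank in 22 of 23 settings in each arm, and with a pseudocount of 0.01 it ranked 4 and 6. Its FPKM at 24 h was 0.36, 0.48 and 0.28 in untreated and 0.47, 0.59 and 0.46 in exposed spheroids. At 144 h it was 14.2, 14.8 and 14.8 in untreated and 40.7, 45.7 and 43.5 in exposed spheroids. The groups overlapped at 24 h and were widely apart at 144 h. Over time IGFBP3 rose by 4.98 in untreated (SE 0.13, adjusted p = 2.59e-12) and by 6.17 in exposed spheroids (SE 0.13, adjusted p = 2.91e-13). These values are on the scale with 0.1 added, on which the change of a gene near 0.4 FPKM is understated, and the ratios of the group means were 39.2 and 85.5. With TPN IGFBP3 rose by 1.56 at 144 h (SE 0.13, adjusted p = 2.64e-07), the 78th highest log2 fold change of that comparison, with a ratio of means of 2.96. At 24 h the log2 fold change was 0.37 (SE 0.13, adjusted p = 0.0790). With 1 library left out this ran from 0.23 (adjusted p = 0.271, without untreated replicate 3) to 0.53 (adjusted p = 0.00772, without untreated replicate 2), and the adjusted p was 0.333 with only the compared groups in the model. The effect of TPN was greater at 144 h than at 24 h by 1.19 (SE 0.18, adjusted p = 0.000270).

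IGFBP1 and IGFBP3 are neighbours. In the table they lie at chr7:45886595-45893660 and chr7:45912245-45921272 on GRCh38.p13, with 18584 bases between them and 0 protein-coding genes of RefSeq in that stretch. Both rose over time in both arms. Their ratio in FPKM went from 685 ± 155 at 24 h to 49.2 ± 3.32 at 144 h in untreated spheroids and from 651 ± 74.8 to 18.1 ± 1.19 in exposed spheroids (SD, n = 3). IGFBP2 and IGFBP5 form the other such pair, at chr2:216632828-216664436 and chr2:216672105-216695552, with 7668 bases and again 0 protein-coding genes between them. IGFBP2 was at its highest at 144 h with TPN, while IGFBP5 was near 0 at 144 h in both arms.

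IGFBP2, a binding protein abundant in the fetal circulation, was expressed at a low level. Its FPKM was 1.77, 1.44 and 1.52 in untreated and 1.84, 1.63 and 1.60 in exposed spheroids at 24 h. It was 1.49, 1.28 and 1.47 in untreated and 1.94, 3.43 and 3.50 in exposed spheroids at 144 h. The exposed libraries of 144 h were all above the untreated ones, but replicate 1 was much closer to them than the other two. With TPN IGFBP2 rose at 144 h by 0.97 (SE 0.18, adjusted p = 0.000443), with values between 0.83 and 1.24 when 1 library at a time was left out. At 24 h the log2 fold change was 0.10 (SE 0.18, adjusted p = 0.810), and the interaction was 0.87 (SE 0.25, adjusted p = 0.0183). IGFBP2 rose over time in exposed spheroids by 0.73 (SE 0.18, adjusted p = 0.00201), or 0.53 with a pseudocount of 1, which is short of the fold threshold. In untreated spheroids its change over time was -0.15 (95% interval -0.53 to 0.24, adjusted p = 0.473).

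IGFBP5, a binding protein typical of mesenchymal cells, was near 0 at 144 h. Its FPKM was 0.29, 0.33 and 0.27 in untreated and 0.20, 0.20 and 0.16 in exposed spheroids at 24 h. At 144 h it was 0.04, 0.04 and 0 in untreated and 0.01, 0.01 and 0.02 in exposed spheroids. Every library of 144 h was below every library of 24 h, and at 24 h the exposed libraries were below the untreated ones. As IGFBP5 was under the filter, each comparison was made by an exact permutation test of 3 against 3 libraries, which cannot give a two-sided p below 0.1. The exact test gave p = 0.1 over time in each arm and for TPN at 24 h, and p = 0.4 for TPN at 144 h. When limma was run without the filter, the adjusted p values for IGFBP5 were 1.07e-06 and 4.93e-06 over time in untreated and exposed spheroids, 0.0783 for TPN at 24 h and 0.487 for TPN at 144 h. At 144 h the level was worth few fragments, so no fold is given.

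**Figure D3:**
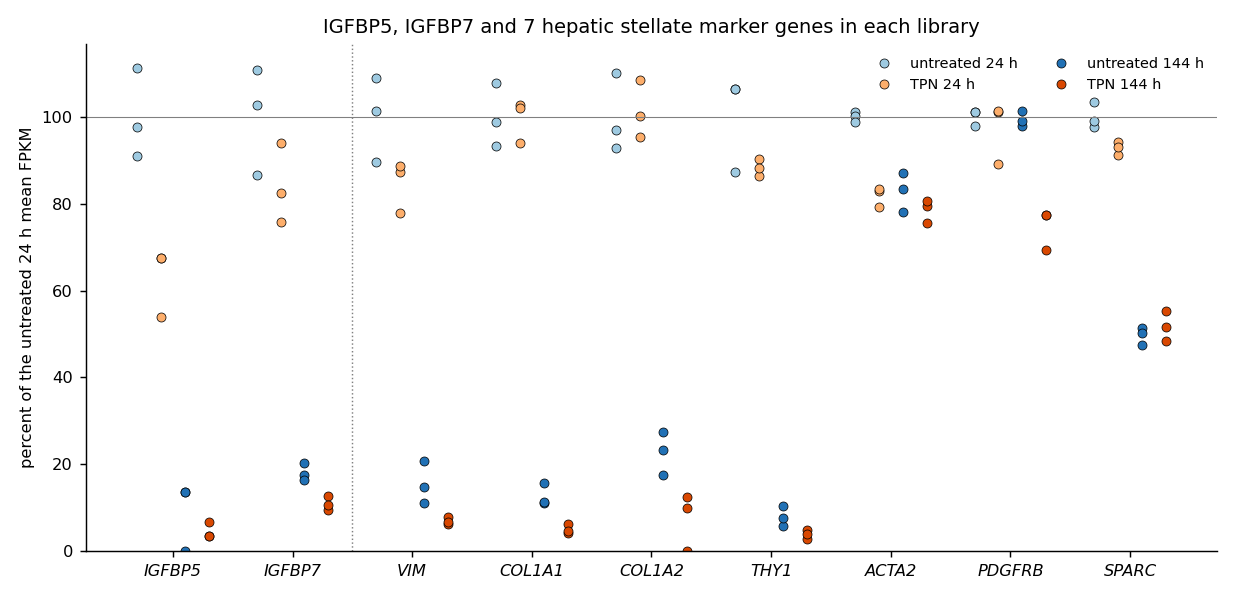
FPKM of IGFBP5, IGFBP7 and 7 hepatic stellate markers in each library as a percent of the untreated 24 h mean, with 1 point per library and colours for the 4 groups. At 144 h IGFBP5, IGFBP7, VIM, COL1A1, COL1A2 and THY1 lie below 30% in all 6 libraries, while ACTA2, PDGFRB and SPARC lie at 47.4% or more.

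IGFBP5 was lower at 144 h, and most markers of the stellate line fell over time, but not all to the same extent. Of 12 such markers, 8 were tested, and 7 of them fell over time in untreated spheroids, with a median log2 fold change of -1.96 for the 8. Over all genes 72.6% had an adjusted p below 0.05 in that comparison, in either direction, with a median of -0.18. The 12 together summed to between 134.8 and 142.3 FPKM in untreated spheroids at 24 h and to between 75.2 and 80.2 at 144 h. In untreated spheroids the mean of VIM went from 15.6 to 2.44 FPKM and that of THY1 from 1.05 to 0.0833. The mean of ACTA2 went only from 57.8 to 47.9 FPKM, and that of PDGFRB was 3.10 and 3.08 FPKM. By RT-qPCR of DES, PDGFRB, COL1A1 and ACTA2, the paper described stellate markers as stable between the start and the end of the treatment period. The first libraries here were taken 24 h after that start, and VIM and THY1 were not among those genes. Here the mean of COL1A1 went from 15.1 to 1.92 FPKM in untreated spheroids, and DES was below 0.1 FPKM in every group. IGFBP7, a related protein that binds IGFs weakly and is made by stromal cells, fell over time by 2.38 in untreated spheroids (SE 0.12, adjusted p = 1.22e-09). It also fell with TPN at 144 h by 0.67 (SE 0.12, adjusted p = 0.000482), when its FPKM was 1.37, 1.19 and 1.10 in untreated and 0.85, 0.64 and 0.71 in exposed spheroids. With TPN at 144 h 4 of the 8 stellate markers tested were lower by the same test and 0 were higher, against 52.5% of all genes in either direction. The part of the stellate line in the changes of IGFBP5 and IGFBP7 was not tested. IGFBP3 is also made by stellate cells. Over time it rose while most of these markers fell, and from which line its RNA came was not tested.

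IGFBP4 and IGFBP6 were DEGs in none of these comparisons. IGFBP4, which holds IGFs back until the protease PAPPA cuts it, was at 9.90, 9.66 and 9.10 FPKM in untreated and 8.64, 8.23 and 8.54 in exposed spheroids at 24 h. At 144 h it was at 6.62, 7.06 and 7.68 in untreated and 8.16, 8.80 and 9.05 in exposed spheroids. The exposed libraries lay below the untreated ones at 24 h and above them at 144 h. The log2 fold change with TPN was -0.17 at 24 h (SE 0.06, adjusted p = 0.0961) and 0.28 at 144 h (SE 0.06, adjusted p = 0.00150), and the interaction was 0.45 (SE 0.09, adjusted p = 0.00146). In untreated spheroids IGFBP4 fell over time by 0.42 (SE 0.06, adjusted p = 2.61e-05). In exposed spheroids its change over time was 0.03 (95% interval -0.10 to 0.16), which became 0.21 with an adjusted p value below 0.05 when libraries were scaled by median ratios. PAPPA itself did not exceed 0.03 FPKM. IGFBP6, which prefers IGF2 to IGF1, ranged from 1.26 to 2.28 FPKM over the 12 libraries, its groups overlapped in all 4 comparisons, and it passed no test. Its log2 fold change with TPN was -0.15 (95% interval -0.49 to 0.20) at 24 h and -0.17 (95% interval -0.51 to 0.17) at 144 h.

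The windows of 250 bases before the RefSeq transcription start (build GRCh38.p14) are shown for 3 binding proteins whose levels over time rose in both arms (IGFBP3), fell in untreated spheroids alone (IGFBP4) or were near 0 at 144 h (IGFBP5). They run 5′ to 3′ on the strand of the gene, and capitals mark matches to the TATA box TATANA and the GC box GGGCGG on either strand. IGFBP3 is at chr7:45921273-45921522 (minus strand), IGFBP4 at chr17:40443200-40443449 (plus strand, within the gene's span in the table) and IGFBP5 at chr2:216695550-216695799 (minus strand).
IGFBP3: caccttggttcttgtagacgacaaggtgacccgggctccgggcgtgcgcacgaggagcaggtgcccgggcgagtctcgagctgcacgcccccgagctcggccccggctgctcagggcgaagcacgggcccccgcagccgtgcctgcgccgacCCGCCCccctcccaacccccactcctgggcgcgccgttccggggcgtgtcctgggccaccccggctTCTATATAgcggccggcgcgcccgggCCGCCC
IGFBP4: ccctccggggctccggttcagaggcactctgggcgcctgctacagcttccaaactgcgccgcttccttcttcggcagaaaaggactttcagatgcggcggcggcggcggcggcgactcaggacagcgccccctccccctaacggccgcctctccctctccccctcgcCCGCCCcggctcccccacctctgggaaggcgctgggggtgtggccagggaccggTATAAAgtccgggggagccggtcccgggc
IGFBP5: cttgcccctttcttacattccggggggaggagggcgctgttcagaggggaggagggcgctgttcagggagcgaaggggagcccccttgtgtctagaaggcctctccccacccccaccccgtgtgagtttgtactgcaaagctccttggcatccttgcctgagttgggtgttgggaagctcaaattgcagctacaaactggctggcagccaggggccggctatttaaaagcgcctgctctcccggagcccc
IGFBP3 held 3 overlapping TATANA matches, 32 and 30 bases before the start, and 2 GC boxes, 98 and 6 bases before it. IGFBP4 held 1 TATANA match 29 bases before the start and 1 GC box 83 bases before it. IGFBP5 held neither. Among 35116 windows of this length, 17.7% had a TATANA match and 42.6% a GC box. The G and C content was 76.0% in IGFBP3, 71.6% in IGFBP4 and 61.2% in IGFBP5, against a median of 58.0% over all windows, and the number of CpG was 32, 24 and 8 against a median of 11. None of the 3 windows matched the cores ACGTG (hypoxia response), TGACNNNGC (antioxidant response) or GTAAACA (forkhead), which occurred in 18.5%, 10.9% and 2.98% of all windows. Of the other genes with a window, IGFALS held a TATANA match and a GC box, 48 and 154 bases before the start, IGF1R held 2 GC boxes and an ACGTG match, IGFBP6 held a GC box and a GTAAACA match, and IGFBP2 held a GC box in 2 of its 3 windows. The 3 windows printed were chosen by the levels of their genes, so nothing is read from which motifs they hold. These are letter matches only, and they say nothing about binding in these cells. Windows were found for 7 of the 10 genes, and those of IGFBP1, IGF2 and IGF2BP1 were not analysed here.

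The summed FPKM of IGFBP1 to IGFBP6 was 259 ± 19.7 without TPN and 339 ± 11.3 with TPN at 24 h, and 744 ± 34.7 and 840 ± 8.71 at 144 h (SD, n = 3). IGFBP1 took 94.7% ± 0.26 and 96.3% ± 0.16 of that sum at 24 h, and 96.7% ± 0.26 and 93.3% ± 0.43 at 144 h. Without IGFBP1 the sum was 13.7 ± 0.58 and 12.6 ± 0.46 FPKM at 24 h and 24.9 ± 1.06 and 56.4 ± 3.49 at 144 h. IGFBP3 took 2.70% ± 0.63 and 4.04% ± 0.69 of this smaller sum at 24 h, but 58.8% ± 1.24 and 76.8% ± 1.07 at 144 h. IGFBP4 held most of it at 24 h. IGF2 per summed binding protein was 3.60 ± 0.27 without TPN and 2.65 ± 0.08 with TPN at 24 h, and 3.45 ± 0.26 and 2.19 ± 0.09 at 144 h. At each time point the 3 exposed libraries were below the 3 untreated ones in this ratio, whose range was 3.40 to 3.91 against 2.58 to 2.74 at 24 h and 3.17 to 3.69 against 2.11 to 2.30 at 144 h. These shares and ratios are of mRNA and were given no test, and protein was not analysed here.

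**Figure D4:**
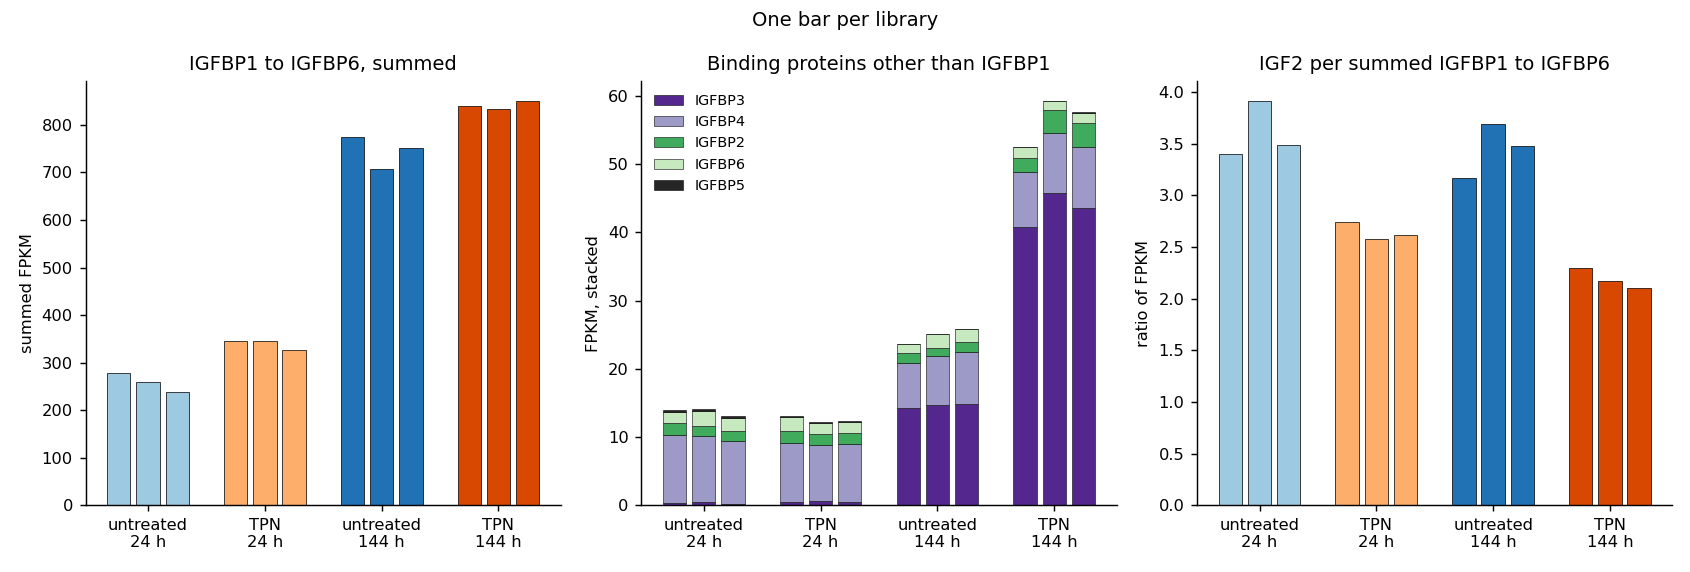
From left to right, the summed FPKM of IGFBP1 to IGFBP6, the stacked FPKM of the 5 binding proteins other than IGFBP1, and IGF2 FPKM divided by the summed FPKM, with 1 bar per library in each of the 4 groups. The middle panel goes from at most 14.2 FPKM at 24 h to between 52.5 and 59.2 FPKM in exposed spheroids at 144 h, mostly IGFBP3, and the right panel is lower in exposed than in untreated libraries at both time points.

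IGFALS, the acid-labile subunit that joins IGFBP3 and an IGF into the long-lived complex of blood, was near the limit of the filter. Its mean over the 12 libraries was 0.57 FPKM, and its group means at 144 h were 0.44 and 0.38. It passed the filter through its levels at 24 h, so its test over time is not independent of the filter. Its FPKM was 0.80, 0.84 and 0.62 in untreated and 0.73, 0.79 and 0.56 in exposed spheroids at 24 h. It was 0.49, 0.40 and 0.44 in untreated and 0.34, 0.30 and 0.51 in exposed spheroids at 144 h. The time points did not overlap within either arm, and exposed and untreated libraries overlapped at both. IGFALS fell over time by 0.64 in untreated (SE 0.20, adjusted p = 0.00951) and by 0.73 in exposed spheroids (SE 0.20, adjusted p = 0.00417), so that it went down while IGFBP3 went up. With libraries scaled by median ratios these values were -0.50 and -0.58, and with a pseudocount of 1 they were -0.28 and -0.29, so that IGFALS was then no DEG. Its log2 fold change with TPN was -0.11 at 24 h (95% interval -0.53 to 0.32) and -0.19 at 144 h (95% interval -0.62 to 0.24).

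IGF2BP1, a fetal-type protein that binds IGF2 mRNA among others, fell with time, and with TPN at 144 h. Its FPKM was 56.3, 55.1 and 59.0 in untreated and 51.5, 53.0 and 54.4 in exposed spheroids at 24 h. At 144 h it was 38.5, 39.2 and 37.4 in untreated and 32.8, 32.6 and 31.4 in exposed spheroids. At both time points all exposed libraries were below all untreated ones. The log2 fold change with TPN was -0.10 at 24 h (SE 0.04, adjusted p = 0.0920), and IGF2BP1 fell by 0.25 at 144 h (SE 0.04, adjusted p = 4.73e-05). It fell over time by 0.57 in untreated (SE 0.04, adjusted p = 6.74e-09) and by 0.71 in exposed spheroids (SE 0.04, adjusted p = 3.82e-10), or by 0.53 with median ratio scaling, where it was no DEG. Its interaction was -0.15 (SE 0.05, adjusted p = 0.0358) and missed an adjusted p of 0.05 in 10 of 21 alternative settings. Its relatives differed from it over time, since IGF2BP2 rose in untreated spheroids by 0.40 (SE 0.04, adjusted p = 4.02e-07). IGF2BP3 fell by 0.18 (SE 0.05, adjusted p = 0.00247), no more than the median of all genes (-0.18). LIN28B, another fetal RNA-binding protein, fell by 0.60 (SE 0.05, adjusted p = 3.24e-07). With TPN at 144 h the log2 fold changes of IGF2BP2, IGF2BP3 and LIN28B were -0.07, -0.0042 and -0.06, with adjusted p values of 0.116, 0.947 and 0.385.

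A wider list of the pathway held 46 genes of the table, of which 34 passed the filter. It had 7 genes with an adjusted p below 0.05 for TPN at 24 h (4 higher and 3 lower) and 19 at 144 h (11 higher and 8 lower), against 10.5% and 52.5% of all genes. At 24 h 0 of the 34 were DEGs and at 144 h 3 were, against 0.914% and 9.48% of all genes, so that the share at 144 h (8.82%) was near that of all genes. FOXO1, a transcription factor that insulin and IGF signalling inactivate, fell with TPN by 0.84 at 144 h (SE 0.06, adjusted p = 1.15e-07) and by 0.32 at 24 h (SE 0.06, adjusted p = 0.00418). GRB10, an adaptor that dampens insulin and IGF1 receptor signalling, rose by 0.60 at 144 h (SE 0.07, adjusted p = 7.69e-06). IGFBP7 was the other DEG. The median log2 fold change of the 34 at 144 h was 0.04, and that of all genes was -0.02.

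The same list held genes that act on the release of IGFs or pass on their signal. STC2, an inhibitor of PAPPA, rose over time in untreated spheroids by 1.60 (SE 0.04, adjusted p = 2.61e-12) and with TPN by 0.31 at 24 h (SE 0.04, adjusted p = 0.000293) and 0.47 at 144 h (SE 0.04, adjusted p = 5.94e-07). Its FPKM at 144 h was 140, 145 and 150 in untreated and 192, 209 and 200 in exposed spheroids, well above PAPPA, the enzyme it inhibits. IRS1, the docking protein below both receptors, fell with TPN by 0.22 at 24 h (SE 0.06, adjusted p = 0.0451) and rose by 0.39 at 144 h (SE 0.06, adjusted p = 0.000192), and its interaction was 0.61 (SE 0.09, adjusted p = 0.000260). Its relative IRS2 did not exceed 0.04 FPKM in any library.

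Genes whose levels went most like those of a member were found by Pearson correlation across the 12 libraries on the log2(FPKM + 0.1) scale. These libraries share the same 2 time points and exposures, and the correlations describe that shared course, with no test. For IGFBP1 the 5 nearest were PLOD1 (r = 0.996), PGK1 (0.995), NDUFA4L2 (0.995), VPS37A (0.995) and ASNS (0.995). For IGF2 they were SLC11A2 (0.994), PELI1 (0.993), PLXDC2 (0.992), TAF1D (0.991) and NFIL3 (0.991). For IGFBP3, which was added to this search after its values were seen, they were ANGPTL4 (0.999), BNIP3L (0.998), TCP11L2 (0.998), WSB1 (0.998) and FOSL2 (0.998). ANGPTL4, a secreted inhibitor of lipoprotein lipase, had group means of 1.56 and 1.91 FPKM at 24 h and 17.5 and 37.7 FPKM at 144 h, in the order untreated and exposed.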

How the data were processed

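RNA of 12 libraries was sequenced by the submitters on a DNBSEQ instrument from a strand-specific library. The authors filtered reads with SOAPnuke, mapped them with HISAT2 2.0.4 to GRCh38.p13 and with Bowtie2 2.2.5 to transcripts, and calculated FPKM with RSEM. The deposited FPKM values, rounded to 2 decimals, were used as they stand, and 20 lines of the table that held no gene were left out. The study tested counts, and FPKM values were tested here with limma 3.58.1 in R 4.3.3, with 4 groups in 1 model, an intensity trend, a pseudocount of 0.1 and a filter at a mean FPKM of 0.5. Thresholds (0.58 and 0.05) follow the study's methods. Shares, levels and permutation tests were computed with Python 3.11.15, pandas 2.3.3 and scipy 1.17.1. The limma step was also run on simulated data with normal noise, in which changes were set only in genes averaging at least 1 FPKM. IGFALS and IGFBP5 were below that level, and nothing is concluded from that run here.

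The spacing of low FPKM values in 50 short genes gave an estimate of depth, with transcript lengths of GENCODE v44, and 1 fragment was worth between 0.00449 (IGF1R) and 0.0790 FPKM (IGFBP6). The genes, lists and tests were chosen with earlier results of these data known. All 10 members are named, with the wider-list genes that were DEGs with TPN and the 5 genes most like a chosen member. Also named are 12 genes of the pathway picked whatever their values, of which IGFBP7 was also a DEG with TPN. IGFALS, IGFBP2, IGFBP3 and IGFBP6 are low enough for single fragments to move their values. Alternatives changed the pseudocount, filter, scaling, trend, threshold, block and libraries.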

Additional observations from a re-analysis of the deposited data

Results flagged for a closer look

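The effect of TPN was different at 144 h and at 24 h in 6 of the 9 genes tested, by the interaction in the limma model with an adjusted p value below 0.05. On the log2 scale, the effect at 144 h exceeded that at 24 h by 1.19 for IGFBP3, 0.87 for IGFBP2 and 0.45 for IGFBP4. The difference was -0.42 for IGF2, -0.29 for IGFBP1 and -0.15 for IGF2BP1. Of all genes tested, 30.4% passed the same test. IGFBP1 was higher with TPN at both time points and less so at 144 h. Groups of 3 libraries are too small for a test of single libraries that stand apart.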

How the results depend on the processing

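Of 966 values of single genes under alternative settings, 925 kept their direction and their side of an adjusted p of 0.05, 24 lost it, 6 gained it and 11 changed sign, none of them past the threshold in the first place. Without the fold threshold, the number of members called was 1 in place of 0 for TPN at 24 h, 7 in place of 2 at 144 h, 6 in place of 2 for the interaction and 7 in place of 4 over time in untreated spheroids. With only genes of a mean FPKM of at least 5, IGFBP2, IGFALS, IGFBP5 and IGFBP6 were not tested. In that setting 1 member was called for TPN at 144 h and 1 for the interaction. Over time in untreated spheroids, 3 members were called with that filter, a pseudocount of 1, median ratio scaling or quantile normalization. In exposed spheroids the counts in these settings were 4, 4, 4 and 5 in place of 6. Without a filter, where IGFBP5 was tested as well, the counts over time were 5 in untreated and 7 in exposed spheroids. Counts under another filter are thus out of another number of members tested. Shares of all genes are not given for the alternative settings. When each library was left out in turn, the counts were 0 to 0, 2 to 2, 2 to 2, 4 to 5 and 6 to 6. With IGFBP7 added to the sum, the 24 h share of IGFBP1 was 92.3% in untreated and 94.7% in exposed spheroids. Leaving out 1 library kept that share of the 4 groups within 94.5% to 94.8%, 96.2% to 96.3%, 96.5% to 96.8% and 93.1% to 93.5%.

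The sign changes were in values near 0. For TPN at 24 h, IGF2 was 0.0086 without untreated replicate 2 and IGFALS 0.020 without exposed replicate 3, and IGFBP2 over time in untreated spheroids was 0.017 with median ratio scaling. With 1 library left out, these ran from -0.13 to 0.0086 for IGF2 and -0.22 to 0.020 for IGFALS, and the interaction ran from -0.263 to 0.042 for IGFALS and -0.185 to 0.092 for IGFBP6. Deviations of same-numbered libraries correlated weakly (-0.08 to 0.15), with 5 of 18 pairs above 0.1 and all 6 pairs of replicate 3 above 0, and 8 of 12 libraries correlated better on average with their own number. Since no 2 groups had every pair above 0.1, the numbers were not taken as pairs. With the replicate block the counts of members called were 0, 2, 2, 4 and 6, as without it, while IGFBP3 passed for TPN at 24 h (adjusted p = 0.0406) and the interaction of IGF2BP1 did not pass (adjusted p = 0.0519). The cause of these shifts was not tested. Depth limits IGFBP5, IGFALS, IGFBP6, IGFBP2 and, at 24 h, IGFBP3.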
